A study of Mus musculus with 4 samples.

Results

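The genes described here make up the Wnt signalling pathway as a cell sends, receives and dampens it: ligands and their agonists, receptors, secreted inhibitors, the cytoplasmic machinery around β-catenin, and transcription factors with feedback targets. They were chosen by name as a list of 54 genes, of which 53 were measured among 19938 named genes. The transcription factor gene Tcf7 had no probe set with a single gene symbol and is not analysed here. NIH3T3 is an established line of mouse embryonic fibroblasts. All samples came from 1 stable clone, p19, with the integrated constructs pBI-EGFP-FLAG-mCtcfl and pTA-N, so both groups carry the Tet-Off transgene for FLAG-tagged mouse Ctcfl. The 2 control samples were kept in 2 µg/ml doxycycline to hold the transgene off, and the 2 Ctcfl samples had been without the drug for 48 h. Loss of the drug and gain of Ctcfl always coincided, so their effects cannot be told apart. The same holds for any change in the EGFP named in the construct. Whether replicates came from separate cultures is not stated, so the p-values cover the spread between these 4 samples alone, which may be technical.

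Wnt proteins are secreted, lipid-modified ligands. They bind Frizzled receptors together with the co-receptors LRP5 and LRP6, which stops a destruction complex of APC, AXIN1 and the kinase GSK3β from marking β-catenin for degradation. Stabilised β-catenin then works with TCF and LEF factors on target genes, several of which encode inhibitors of the pathway. In fibroblasts the pathway is known for its part in proliferation and matrix production. CTCFL, also called BORIS, is the germ-line paralog of the insulator protein CTCF and has a similar zinc finger domain for binding DNA.

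Each sample was hybridised to 1 Affymetrix array, and values are RMA expression values on the log2 scale. The lower quartile of all probe sets was 4.09 to 4.12 and the upper quartile 7.40 to 7.43 on the 4 arrays. Different genes are read by different probes, so the value of one gene is not set against that of another. Ctcfl itself read 7.77 and 7.71 on the control arrays and 10.37 and 10.35 on the Ctcfl arrays. Its control values were above the upper quartile, so the values do not show that the transgene was fully off there. Of 9 fibroblast markers, 8 lay above the upper quartile on every array, and the other, Lum, read 2.82 to 2.98. None of the 27 measured epithelial, endothelial, leukocyte, muscle or neural markers lay above it on every array, and their values ran from 3.82 to 6.39. In such bulk samples, fewer cells of a type and less RNA per cell cannot be told apart.

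Setting Ctcfl against control arrays asks whether Wnt pathway genes respond when Ctcfl is raised in fibroblasts. No Wnt gene passed the test, limma with Benjamini-Hochberg adjustment over all genes at a threshold of 0.05, which called 0.0451% of all genes. The gene that came nearest was the receptor gene Fzd4, 1.73-fold higher with Ctcfl and an adjusted p of 0.115. At an unadjusted p under 0.05 there were 10 of the 53 genes (18.9%), against 10.7% of all genes. The 5 higher ones were Fzd4, Fzd2, Rnf43, Wnt6 and Wnt9a (all genes, 5.36%), and the 5 lower ones were Fzd1, Fzd3, Wnt1, Sfrp2 and Tcf7l2 (all genes, 5.32%). With each array centred on its median, 3 were higher and 5 lower, because Fzd2 and Wnt9a no longer had an unadjusted p under 0.05. Without the dimmest 33.3% of genes, 9 of the 43 genes left (20.9%) had such a p, against 15.4% of all genes left. All 10 had non-overlapping groups, so leaving out 1 array could not reverse their direction.

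The groups did not overlap, with both Ctcfl values above or both below the control values, for 24 of the 53 genes (45.3%), a share close to the 41.1% of all genes. Of these, 14 were higher and 10 lower, where all genes had 20.6% in each direction. The median log2 change was 0.00 for the 53 genes and 0.00 for all genes, and the median size of the change was 0.13 against 0.10. A difference of at least 1.2-fold was measured for 5 of the 53 (9.43%) and for 8.81% of all genes. The 5 were Fzd4, Rnf43, Fzd1, Wnt1 and Wnt6.

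**Figure D1:**
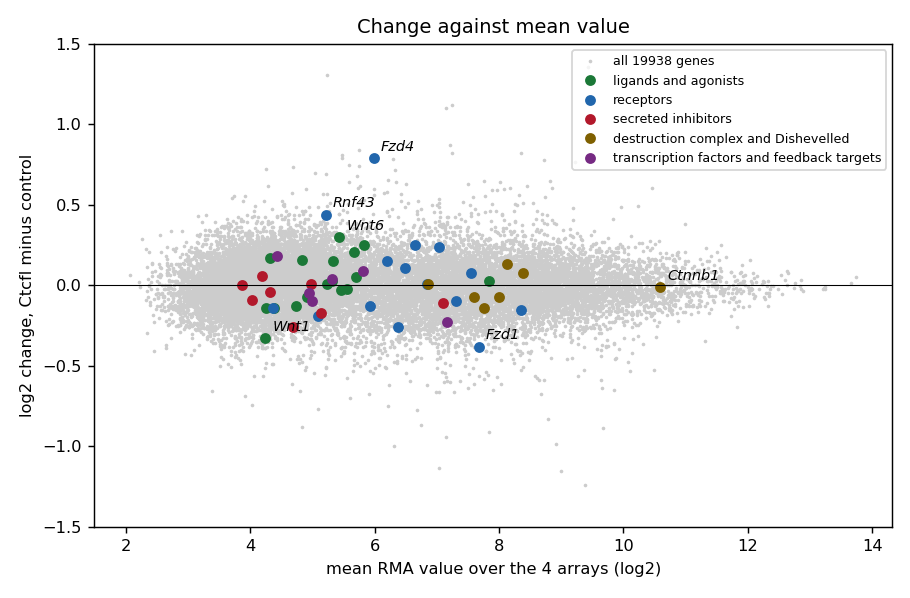
Log2 change (Ctcfl minus control, vertical axis) against the mean RMA value over the 4 arrays (log2, horizontal axis) for all genes in grey and the 53 Wnt pathway genes coloured by class. The vertical axis ends at 1.5 in either direction and leaves out 4 genes, none of them in the pathway list. Fzd4 at 0.79 stands highest of the pathway genes, Fzd1 at -0.38 lowest, and Ctnnb1 sits at -0.01.

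Wnt ligands come first in the pathway. Of the 13 measured Wnt genes, 6 had higher values on both Ctcfl arrays than on both controls, 1 had lower values and 6 overlapped, where 20.6% of all genes were higher and 20.6% lower. The split was 5 higher and 2 lower with either alternative scaling of the arrays. The largest positive difference was in Wnt6, a ligand known from epithelial and mesenchymal development. Wnt6 read 5.24 and 5.31 on the control arrays and 5.65 and 5.49 on the Ctcfl arrays. The groups did not overlap, and the log2 change was 0.30 (SE 0.10, adjusted p = 0.399 by limma).

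Wnt9a, a ligand with a known role in joint formation, read 5.70 and 5.71 in control and 5.91 and 5.99 with Ctcfl. Its control arrays nearly coincided and both Ctcfl arrays were above them, with a log2 change of 0.25 (SE 0.08, adjusted p = 0.422). Wnt10a, a ligand of skin, hair and tooth development, read 5.44 and 5.68 in control and 5.81 and 5.73 with Ctcfl. Here the upper control array came within 0.05 of the lower Ctcfl array, and the log2 change was 0.21 (SE 0.11, adjusted p = 0.537). Smaller positive log2 changes with non-overlapping groups were those of Wnt2 (0.17), Wnt11 (0.16) and Wnt10b (0.15).

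Wnt1, the founding member of the family and best known from the developing midbrain, was the ligand with the largest negative difference. It read 4.35 and 4.45 in control and 4.20 and 3.95 with Ctcfl, a log2 change of -0.33 (SE 0.11, adjusted p = 0.420). Its mean was in the dimmest 33.3% of genes, near the lower quartile of the arrays, and no detection call was used to separate such values from background. Wnt2, Rspo2 and Rspo3 were also among those dim genes.

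Wnt5a, the best-known ligand of β-catenin-independent signalling in mesenchymal cells, was the brightest probe set of its class, which does not rank its transcripts. It read 7.78 and 7.85 in control and 7.81 and 7.88 with Ctcfl. The groups overlapped, and the log2 change of 0.03 had a 95% interval of -0.18 to 0.24. Its close relative Wnt5b had a log2 change of -0.02, Wnt4 had 0.05, Wnt7b 0.01, Wnt16 -0.07 and Wnt2b -0.13, all with overlapping groups. Wnt4 was the one gene of the list with a second probe set, which read 5.04 and 4.76 in control and 5.21 and 5.13 with Ctcfl, a difference of 0.27 where the brighter one gave 0.05.

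Several Wnt genes lie side by side in the mouse genome as old duplicated pairs, and their values are given by pair. Wnt6 and Wnt10a are direct neighbours on chromosome 1, with log2 changes of 0.30 and 0.21. Wnt9a sits next to Wnt3a on chromosome 11, where Wnt3a, which is outside the list, had 0.16 with overlapping groups. Wnt1 and Wnt10b are neighbours on chromosome 15 and had opposite signs, -0.33 and 0.15.

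R-spondins amplify Wnt signalling by binding LGR receptors and drawing RNF43 and ZNRF3 away from Frizzleds. Rspo1 had a log2 change of 0.03, Rspo2 of -0.14 and Rspo3 of -0.14, and the groups were apart only for Rspo2, which read 4.50 and 4.40 in control and 4.33 and 4.30 with Ctcfl. Porcn, the acyltransferase that lipidates Wnt proteins, had -0.03. Over the 17 ligand and agonist genes the median log2 change was 0.03, with 3 at an unadjusted p under 0.05.

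**Figure D2:**
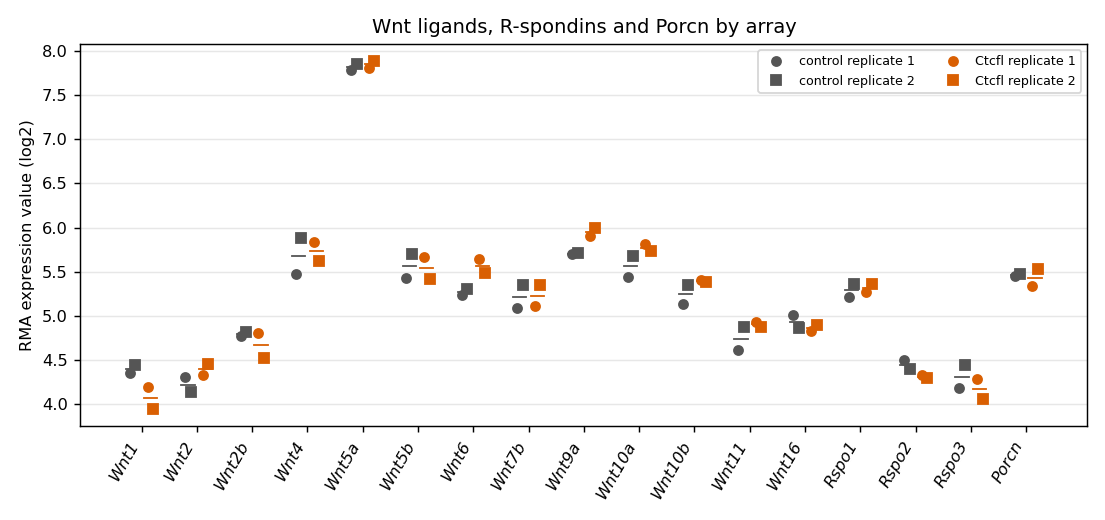
RMA expression value (log2) of the 13 Wnt genes, 3 R-spondin genes and Porcn on each of the 4 arrays, with control arrays in grey, Ctcfl arrays in orange and short lines at the group means. Wnt6 and Wnt9a have both Ctcfl points above both control points, Wnt1 has both below, and Wnt5a overlaps.

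Receptors held the largest differences of the list. Of 15 receptor-class genes, 6 were higher on both Ctcfl arrays, 3 were lower and 6 overlapped, with 5 at an unadjusted p under 0.05 (33.3%). Of all genes, 41.1% had non-overlapping groups and 10.7% such a p. With median centring the split was 5 higher and 4 lower, and with quantile normalisation 6 and 4. The Frizzled genes, which encode the Wnt-binding receptors themselves, differed in both directions: 4 of 9 were higher, 2 lower and 3 overlapping. Fzd4, a receptor also bound by the ligand norrin and required for growth of retinal vessels, read 5.49 and 5.68 in control and 6.42 and 6.33 with Ctcfl. Both Ctcfl arrays were above both controls by at least 0.65. The means were 5.59 ± 0.13 and 6.38 ± 0.06 (SD, n = 2 per group), a log2 change of 0.79 (SE 0.10, 95% interval 0.54 to 1.04, adjusted p = 0.115 by limma).

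Whether Fzd4 passed the threshold turned on how the fit was set up, while the log2 change stayed between 0.70 and 0.89. Its adjusted p was 0.0320 with each array centred on its median, a setting that called 0.155% of all genes. When the variances followed an intensity trend and were estimated robustly it was 0.00147, where 2.40% of all genes were called. Without the dimmest 33.3% of genes it was 0.0577, with the replicate number as a block 0.651, and with 1 array left out 0.539 to 0.649. The block and the left-out arrays gave 0 calls among all 19938 genes, so missing the threshold there is not particular to Fzd4.

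Fzd1, a receptor of β-catenin signalling, was the Frizzled gene with the largest negative difference. It read 7.82 and 7.89 in control and 7.51 and 7.45 with Ctcfl, with all Ctcfl values below all control values. The log2 change was -0.38 (SE 0.09, 95% interval -0.58 to -0.17, adjusted p = 0.292). It passed when variances followed an intensity trend (adjusted p = 0.0185) and had an adjusted p of 0.135 to 0.651 under the other alternatives. Fzd3, the Frizzled of axon guidance and planar cell polarity, read 6.53 and 6.47 in control and 6.32 and 6.17 with Ctcfl (log2 change -0.26, SE 0.09, adjusted p = 0.437).

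**Figure D3:**
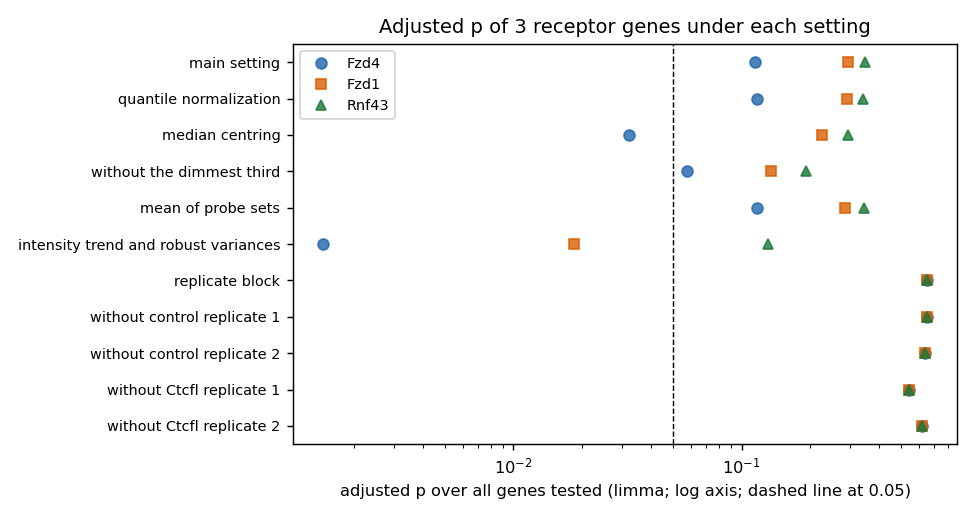
Adjusted p over all genes tested (limma, log axis) of Fzd4, Fzd1 and Rnf43 in the main setting and under each of 10 alternatives, with a dashed line at the threshold of 0.05. Fzd4 lies left of the line with median centring and with the intensity-trend fit, Fzd1 only with the latter, and Rnf43 under none of the settings shown.

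The stretches before the start sites of Fzd4 and Fzd1 are shown because these 2 Frizzled genes had the largest differences in opposite directions. They are the 250 bases upstream of the annotated start in RefSeq (build GRCm38.p6), at chr7:89404116-89404365 on the plus strand for Fzd4 and chr5:4758217-4758466 on the minus strand for Fzd1. Each is printed 5′ to 3′ on the strand of its gene. Capitals mark a match to AGGGGGC, letters found in the core of the CTCF consensus, which reads GCCCCCT on the printed strand.
Fzd4: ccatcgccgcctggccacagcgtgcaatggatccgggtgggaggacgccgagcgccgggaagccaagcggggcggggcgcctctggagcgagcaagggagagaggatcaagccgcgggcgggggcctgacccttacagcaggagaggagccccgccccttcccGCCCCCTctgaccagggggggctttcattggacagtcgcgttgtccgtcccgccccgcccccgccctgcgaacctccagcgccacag
Fzd1: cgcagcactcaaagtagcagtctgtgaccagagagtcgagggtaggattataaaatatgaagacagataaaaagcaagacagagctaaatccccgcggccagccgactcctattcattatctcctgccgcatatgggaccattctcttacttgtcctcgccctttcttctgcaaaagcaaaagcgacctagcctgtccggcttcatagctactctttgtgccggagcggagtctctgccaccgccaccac
The match in Fzd4 begins 87 bases before the start, and Fzd1 had none. Both windows were also searched on both strands for a second CTCF core form, AGGTGGC, and for the TCF/LEF forms CTTTGAT and CTTTGAA, with no match. GC content was 72.8% in the Fzd4 window and 51.2% in the Fzd1 window, against a median of 52.4% over 32851 such windows. AGGGGGC occurred in 9.43% of all windows, AGGTGGC in 5.08%, CTTTGAT in 3.21% and CTTTGAA in 4.46%. Of the 54 listed genes 35 had windows in the table, 45 in all, and AGGGGGC was found in 8 of these, those of Fzd4, Fzd5, Fzd7, Gsk3b, Rspo1, Tcf7l2, Wnt1 and Wnt2. These genes had differences of either sign, among them 0.79 for Fzd4, -0.33 for Wnt1 and -0.23 for Tcf7l2. A match is a run of letters and not a measured binding site.

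The other Frizzled genes had smaller differences. Fzd2, a receptor of WNT5A signalling, read 6.88 and 6.96 in control and 7.21 and 7.11 with Ctcfl, a log2 change of 0.24. Fzd6, known for planar polarity of hair follicles, had 0.25, and Fzd5, which is needed for eye and gut development, had 0.15, both with non-overlapping groups. Fzd7 had -0.10, Fzd8 -0.13 and Fzd9 -0.19, with overlapping groups. In Fzd9 the control arrays themselves were far apart, at 4.90 and 5.48.

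Of the co-receptors, Lrp6 read 8.39 and 8.45 in control and 8.26 and 8.29 with Ctcfl, a log2 change of -0.15 with non-overlapping groups and an adjusted p of 0.574. Lrp5 overlapped at 0.01. The R-spondin receptor gene Lgr4 had 0.08 and its relative Lgr5, a stem cell marker and Wnt target, had -0.14, both overlapping.

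RNF43 and ZNRF3 are membrane ubiquitin ligases that remove Frizzled receptors from the cell surface, and both genes are themselves known Wnt targets. Rnf43 read 5.0 and 4.98 in control and 5.58 and 5.28 with Ctcfl. Both Ctcfl arrays were higher, by amounts that differed between them, and the log2 change was 0.44 (SE 0.12, 95% interval 0.15 to 0.73, adjusted p = 0.348). It was 0.29 without Ctcfl replicate 1 and 0.59 without Ctcfl replicate 2. Znrf3 read 6.49 and 6.38 in control and 6.51 and 6.57 with Ctcfl, a log2 change of 0.11 with an adjusted p of 0.705.

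**Figure D4:**
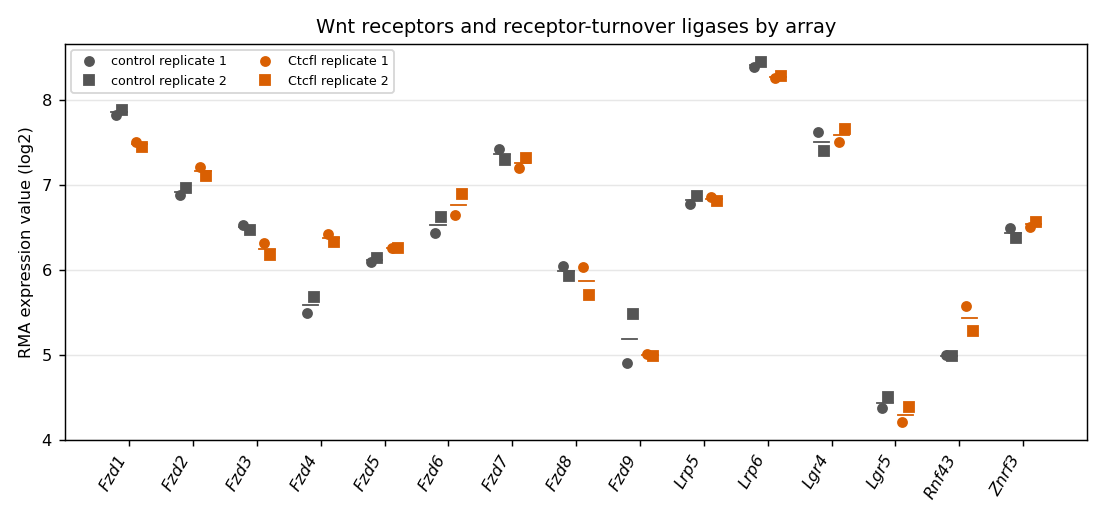
RMA expression value (log2) of the 15 receptor-class genes on each of the 4 arrays, with control arrays in grey, Ctcfl arrays in orange and short lines at the group means. Fzd4, Rnf43 and Fzd2 have both Ctcfl points above both control points, Fzd1, Fzd3 and Lrp6 have both below, and the control points of Fzd9 at 4.90 and 5.48 lie far apart.

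Secreted inhibitors bind Wnt proteins or block LRP co-receptors outside the cell. Of 8 measured genes, 3 had lower values on both Ctcfl arrays, none had higher values on both, and 5 overlapped. Their share without overlap, 37.5%, was below the 41.1% of all genes. With quantile normalisation 2 were lower. Sfrp2, a decoy that binds Wnts and is common in mesenchyme, read 4.72 and 4.92 in control and 4.61 and 4.51 with Ctcfl, a log2 change of -0.26 (SE 0.10, adjusted p = 0.457). Dkk2, a ligand of LRP6, read 5.21 and 5.22 in control and 5.05 on both Ctcfl arrays, a log2 change of -0.17 (SE 0.08, adjusted p = 0.524). Dkk3, a divergent member of the Dickkopf family, read 7.13 and 7.17 in control and 7.12 and 6.97 with Ctcfl. Its upper Ctcfl array lay just under the lower control array, and the log2 change was -0.11 (SE 0.09, adjusted p = 0.720).

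The LRP6 antagonist gene Dkk1, itself a Wnt target, had 0.01 with overlapping groups. Sfrp1, Sfrp4, Frzb and Wif1 had log2 changes of -0.09, 0.06, 0.00 and -0.04, and all 4 were in the dimmest 33.3% of genes. The median over the 8 inhibitor genes was -0.06, beside 0.00 for all genes. Adjusted p-values of the 8 ran from 0.457 to 1.00.

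The destruction complex and the Dishevelled scaffolds, which pass the signal from Frizzled to that complex, had the narrowest range of changes of the 5 classes, -0.14 to 0.13. Ctnnb1, which encodes β-catenin, read 10.61 and 10.57 in control and 10.58 on both Ctcfl arrays. The log2 change was -0.01 with a 95% interval of -0.21 to 0.19. The array measures transcripts, and β-catenin is controlled mainly through the stability of the protein, which was not measured.

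Axin1, the scaffold of the destruction complex, read 7.79 and 7.84 in control and 7.75 and 7.61 with Ctcfl, a log2 change of -0.14 (SE 0.09, adjusted p = 0.631). The tumour suppressor gene Apc read 8.34 and 8.33 in control and 8.47 and 8.36 with Ctcfl, a log2 change of 0.08 (SE 0.09, adjusted p = 0.778). Gsk3b had -0.07, Dvl1 0.13, Dvl2 -0.07 and Dvl3 0.01, all overlapping. None of the 7 genes had an unadjusted p under 0.05.

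Among nuclear factors, Tcf7l2, which encodes the β-catenin partner TCF4, read 7.27 on both control arrays and 6.99 and 7.09 on the Ctcfl arrays. Both Ctcfl values were lower, with a log2 change of -0.23 (SE 0.09, 95% interval -0.44 to -0.02, adjusted p = 0.441). Its relatives overlapped, with 0.09 for Tcf7l1, mainly a repressor, and 0.04 for Lef1, mainly an activator.

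Feedback genes that β-catenin is known to switch on serve as a readout of pathway activity, and they gave mixed values. Axin2, the most widely used of them, read 4.87 and 5.07 in control and 5.19 and 4.66 with Ctcfl. The Ctcfl arrays lay on either side of both controls, and the 95% interval of its log2 change of -0.05 ran from -0.48 to 0.39. Nkd1, a feedback inhibitor that binds Dishevelled, had -0.10 with overlapping groups. Its relative Nkd2, in the dimmest 33.3% of genes, read 4.31 and 4.37 in control and 4.57 and 4.46 with Ctcfl, a log2 change of 0.18 (SE 0.09, adjusted p = 0.531). Over these 6 transcription factor and feedback genes the median was 0.00.

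**Figure D5:**
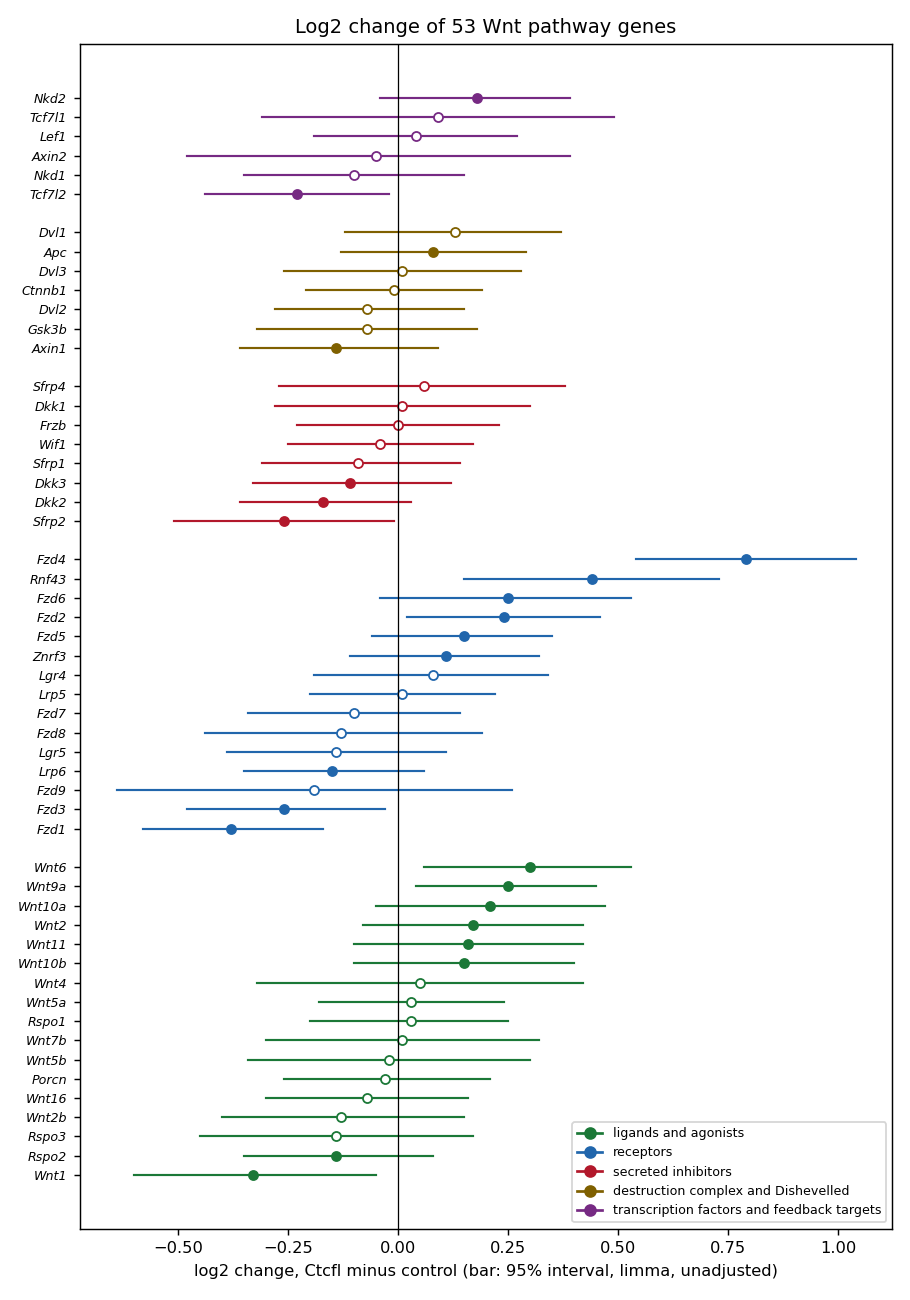
Log2 change (Ctcfl minus control) of the 53 genes with its unadjusted 95% interval from limma, coloured by class and ordered within it. Filled points have groups that do not overlap and open points have groups that do. The interval of Fzd4, 0.54 to 1.04, lies farthest from 0, and that of Axin2, -0.48 to 0.39, spans it widely.

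Other genes of the pathway were taken from a separate list of 86 names, of which 83 were measured. None passed by limma over all genes, and 4 (4.82%) had an unadjusted p under 0.05, 3 higher and 1 lower, against 10.7% of all genes. The higher ones were Dkkl1 (log2 change 0.33), a Dickkopf-like gene of the testis, and the Wnt targets Sp5 (0.34), a transcription factor, and Notum (0.24), an enzyme that strips the lipid from Wnt proteins. Sp5 read 4.50 and 4.83 in control and 4.99 and 5.01 with Ctcfl, and Notum read 4.28 and 4.37 in control and 4.52 and 4.61 with Ctcfl. Dkkl1 and Notum were in the dimmest 33.3% of genes. The lower one was Daam1 (-0.24), a formin that acts downstream of Dishevelled in planar polarity. Next in order were Tpbg (-0.21), an inhibitor at the cell surface, and the polarity gene Vangl1 (-0.20). Of 16 measured general targets, 5 had higher and 5 lower values on both Ctcfl arrays (62.5% without overlap, against 41.1% of all genes). Their median was -0.05. The proliferation gene Myc had -0.09 with overlapping groups, and Ccnd1 had -0.14. Of 13 measured nuclear co-factors, none had higher values on both Ctcfl arrays and 4 had lower ones, with a median of -0.06. Their share without overlap was 30.8%, against 41.1% of all genes. Median log2 changes of the other classes were 0.14 for 9 ligand and secretion genes, 0.09 for 9 receptors and 0.02 for 9 inhibitors. Those of 16 cytoplasmic components and 11 planar polarity genes were 0.00 and -0.03. The shares without overlap, in the same order, were 33.3%, 55.6%, 22.2%, 43.8% and 45.5%.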

How the data were processed

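The deposited log2 values are RMA values made by the authors with Expression Console, per the labels. The version is not given in the sources used here. Probe sets were named from the 2016 platform annotation: of 35511 with values, 21789 had 1 symbol, 1621 several, and 12101 are unnamed here. Gene identifiers of 21698 matched the RefSeq table of GRCm38.p6. Each gene was read from its brightest probe set (19938 genes), with no filter on dim genes.

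The 2 Ctcfl and 2 control arrays, whose number limits the precision, entered a limma fit (version 3.58.1, R 4.3.3) over all genes, two-sided, with Benjamini-Hochberg adjustment. The test was checked on simulated data. Members, lists and classes were chosen with earlier results of these data known. Members got full statistics if they were among the 4 largest changes of their class with non-overlapping groups. The brightest of each class was also named, and up to 6 genes of the other list by smallest unadjusted p. Myc, Ccnd1, Wls, Kremen1 and Wnt3a of that list were given outside this rule. Alternatives were quantile normalisation, median centring, no dimmest 33.3% of genes, the mean of probe sets, intensity trend with robust variances (statmod 1.5.0), replicate block and each array left out. Figures used matplotlib 3.10.9 in Python 3.11.15.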

Additional observations from a re-analysis of the deposited data

How the results depend on the processing

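The count of Wnt genes past the threshold was 0 in the main setting, 1 with median centring (Fzd4), 2 with an intensity trend and robust variances (Fzd4 and Fzd1) and 0 under each other alternative run. With a replicate block, the crossed pairing or any array left out, limma called 0 of all 19938 genes, Ctcfl included, so a count of 0 there says nothing about Wnt genes. The other 13 genes with full statistics stayed on the same side of the threshold under each alternative that included them (Wnt1 and Nkd2 drop out without the dimmest genes). All 15 kept their direction, but they were chosen for non-overlapping groups, so leaving out an array could not reverse them. The block, the intensity trend and the removal of dim genes also leave the group difference itself unchanged. The count at an unadjusted p under 0.05 by limma was 10 in the main setting (all genes, 10.7%). It was 10 with quantile normalisation (all genes, 11.2%), 8 with median centring (10.3%) and 9 with the intensity trend (13.5%). The count is not given with an array left out, where 1 group holds a single array. These settings therefore do not show that it is stable. Non-overlapping groups, 24 of 53, ranged from 35 to 42 with an array left out, since 1 value against 2 overlaps less often by construction.

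Class medians lay close to 0, and except for the inhibitors each took either sign over the alternatives. The receptor median of 0.010 became -0.010 with median centring and 0.043 without the dimmest 33.3% of genes, and the inhibitor median of -0.063 became -0.135 there, over 4 genes. With an array left out the medians ranged from -0.030 to 0.050 for receptors, -0.035 to 0.095 for ligands and agonists, -0.128 to -0.028 for inhibitors, -0.055 to 0.010 for the destruction complex and -0.153 to 0.035 for transcription factors and feedback targets.

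Arrays with the same replicate number did not deviate together (correlation -0.102), so the numbers are not taken as pairs. With a replicate block 7 Wnt genes had an unadjusted p under 0.05, where 7.36% of all genes did. With the crossed pairing, an alternative chosen after seeing the data, 9 did, where 10.6% of all genes did. The cause of these differences was not tested. Distance from background was not measured for any gene, which limits most the 10 genes in the dimmest 33.3%. Markers of other cell types read up to 6.39, so genes outside the dimmest 33.3% may lie near background too. All values of Rnf43, Wnt6, Wnt9a and Wnt10a, and the control values of Fzd4, were below 6.39.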

Other observations

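The genes around Fzd4 and Fzd1 were read after the values of these 2 were seen. Prss23, a secreted serine protease gene and the next coding gene on one side, read 8.09 and 8.02 in control and 8.34 and 8.56 with Ctcfl, a log2 change of 0.40 (SE 0.10, adjusted p = 0.345 by limma). Tmem135, the next on the other side, overlapped at 0.06. Near Fzd1, Cdk14 on one side overlapped at 0.06. On the other side lies Cyp51, the lanosterol demethylase gene of cholesterol synthesis. Its distance from Fzd1, and any genes between them, are not given here. Cyp51 read 9.58 and 9.52 in control and 9.11 and 8.86 with Ctcfl, a log2 change of -0.57 (SE 0.11, adjusted p = 0.241 by limma). Of genes whose products act with FZD4 in norrin signalling, the co-receptor gene Lrp5 read 6.78 to 6.87 over the 4 arrays, and the ligand and a tetraspanin were in the dimmest 33.3% of genes. The ligand gene Ndp read 3.66 and 3.77 in control and 3.79 and 3.85 with Ctcfl, and the tetraspanin gene Tspan12 read 3.89 and 3.99 in control and 3.95 and 3.85 with Ctcfl. Kremen1, a receptor for Dickkopf proteins that neighbours Znrf3 on chromosome 11, had a log2 change of 0.29 beside 0.11 for Znrf3, and neither passed. Wls, which carries Wnt proteins to the cell surface, read 9.67 and 9.75 in control and 9.79 and 9.91 with Ctcfl (log2 change 0.14, adjusted p = 0.617).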
